A study of Mus musculus with 34 samples.

Results

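The soleus and the plantaris are neighbouring hindlimb muscles of the mouse, and their RNA was compared here in sedentary female mice aged 24 months. The members are 10 libraries, 5 labelled soleus and 5 labelled plantaris by their source name, out of 34 in the series. All of them are controls that did not run; the other libraries are from mice aged 6 months or from mice given 8 weeks of PoWeR, a progressive weighted wheel running regime. Every mouse of the study was killed after an overnight fast. Both muscles carry the numbers 12 to 16, and libraries are called by muscle and number below. The titles of the plantaris libraries name the soleus, so the labelled muscle was first checked against the myosin genes, which set the muscles apart as described below. Strain and genotype are not given in the labels, and whether 1 library is 1 animal is not stated, so the p-values measure the spread between these libraries.

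Muscle fibres come in a slow type and several fast types. Slow and fast fibres differ in the copy they mainly use of many contractile genes and of some calcium-handling and metabolic genes. Slow (type I) fibres contract with the heavy chain Myh7 and burn fuel in mitochondria. Fast fibres use Myh2 (type IIa), Myh1 (type IIx) or Myh4 (type IIb), in that order from more oxidative to more glycolytic. In the mouse the soleus is a postural muscle of slow and type IIa fibres, and the plantaris is a mostly fast muscle. In whole-muscle RNA, fewer cells of a type and less RNA per cell cannot be told apart.

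Counts per library totalled 15237626 to 18139008. Of 13819 genes that passed the filter on low counts, 4953 (35.8%) differed between the muscles by edgeR's quasi-likelihood test at a Benjamini-Hochberg adjusted p under 0.05, 2414 higher and 2539 lower in soleus. A stricter edgeR test, for a change above 2-fold, was passed by 685 genes (4.96%), 354 higher and 331 lower in soleus. In none of these did the libraries of the muscles overlap, which passing that test makes likely, so it is no separate support. Soleus 13 and plantaris 16 stood apart from the rest of their groups. Soleus 13 held the most RNA of the soleus libraries for fast contractile genes (39600 against 32400 to 37800 CPM) and also for slow ones (60800 against 47500 to 52700 CPM). It held the least for interstitial matrix (542 against 968 to 1300 CPM) and endothelial markers (242 against 322 to 408 CPM). Among the plantaris libraries, plantaris 16 held the least RNA of slow-fibre and mitochondrial genes and the most of immunoglobulin genes. Without these libraries 4727 genes were called and 634 passed the 2-fold test. Levels are given as CPM (each count as a rate per TMM-adjusted library size, mean ± SD over 5 libraries unless said otherwise), and fold changes are on the log2 scale of the edgeR fit, soleus over plantaris, with their standard error.

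The myosin heavy chains separated the muscles without overlap. Of the counts of Myh7, Myh2, Myh1 and Myh4 together, Myh7 made up 53.0, 54.3, 48.3, 55.3 and 53.2% in soleus 12 to 16 and 1.24, 0.55, 0.203, 1.0 and 0.0667% in plantaris 12 to 16. Myh2 made up 36.5% ± 4.02 (SD, n = 5) in soleus and 8.42% ± 3.56 in plantaris, and Myh1 9.92% ± 1.79 and 21.6% ± 4.26. The share of Myh4 was 0.244, 3.16, 0.0765, 0.0328 and 0.0366% in soleus and 68.4, 62.6, 68.5, 65.4 and 81.9% in plantaris. Slow and type IIa chains thus led in every soleus library and the type IIb chain in every plantaris library. With the libraries taken as unpaired, the exact two-sided permutation p was 0.00794 in each of the 4 comparisons. That is the smallest that 5 against 5 libraries can give, and it stayed 0.00794 after adjustment over the 4. Levels per length of exon divide by all annotated exons of a gene merged (8616 bases for Myh7, 6016 for Myh4). That length can exceed the length of the RNA made. On this scale soleus held 2690 ± 365 CPM per kb of Myh7 and 2240 ± 349 of Myh2, which differ by less than 2 SD, and 675 ± 79.2 of Myh1. On the same scale plantaris held 8910 ± 1920 CPM per kb of Myh4, 2570 ± 349 of Myh1, 876 ± 349 of Myh2 and 53.0 ± 44.5 of Myh7.

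**Figure D1:**
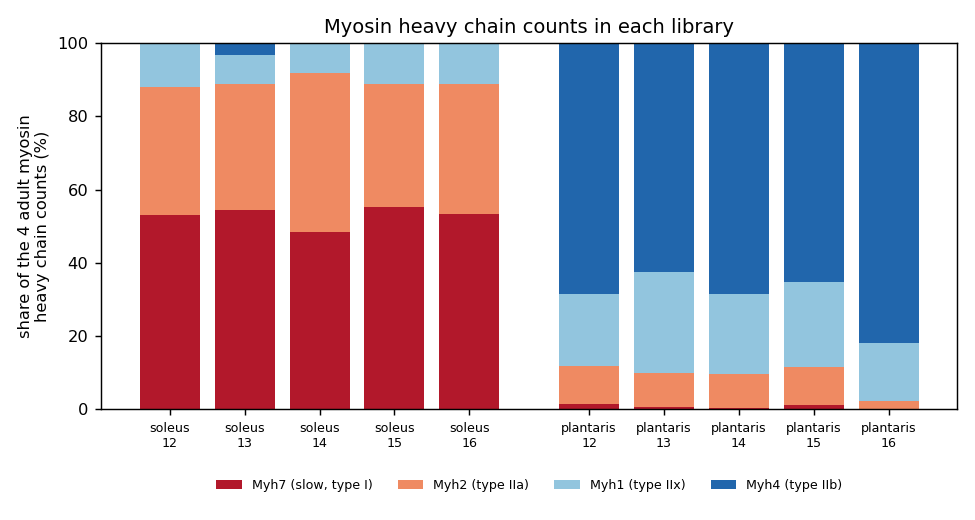
Share of each adult myosin heavy chain gene in the summed counts of the 4 genes (y axis, percent), 1 bar per library. Myh7 takes 48.3 to 55.3% in soleus and at most 1.24% in plantaris, where Myh4 takes 62.6 to 81.9%.

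The heavy chain genes that differ lie side by side in the genome but did not move together. In mm10 the skeletal cluster runs along chromosome 11 from Myh3 (67078300 to 67102291) through Myh2 (67171027 to 67197517), Myh1 (67200052 to 67224575) and Myh4 (67238029 to 67260446) to Myh8 (67277124 to 67308634) and Myh13. Myh3, the embryonic chain, was higher in soleus by 3.49 ± 0.44 (edgeR adjusted p = 2.75e-04), with 104 ± 37.0 against 9.25 ± 4.89 CPM. Myh2 was higher by 1.35 ± 0.34 (adjusted p = 0.0112), while its neighbour Myh1 was lower (log2 -1.93 ± 0.11, adjusted p = 1.30e-08), as was Myh4 (log2 -7.22 ± 1.73, adjusted p = 0.0115). Myh4 spread widely within soleus, at 99.5, 1639, 33.8, 14.3 and 13.99 CPM, and did not pass the 2-fold test (adjusted p = 0.0629). The perinatal chain Myh8 was higher by 0.89 ± 0.27 (adjusted p = 0.021), a call that was lost without plantaris 16 (adjusted p = 0.0517), and Myh13 was not called. The noncoding genes between them were named here after their values were seen. Myhas, annotated antisense and overlapping Myh1, was lower (log2 -2.03 ± 0.12, adjusted p = 9.73e-09), 2310065F04Rik, upstream of Myh2, was lower (log2 -3.17 ± 0.19, adjusted p = 1.21e-08), and 9430073C21Rik, which overlaps the end of Myh2, was higher by 1.08 ± 0.24 (adjusted p = 0.00506). Whether the counting used strand is not given in the sources used here, so reads of an antisense gene and of its partner may be mixed.

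On chromosome 14 the slow chain Myh7 (54970684 to 54994626) and the cardiac chain Myh6 (54941921 to 54966927) lie next to each other, and both were higher in soleus. Myh7 stood at 21640, 28200, 21370, 24110 and 20380 CPM in soleus and at 982, 402, 147, 691 and 59.6 CPM in plantaris, a difference of 5.66 ± 0.80 (adjusted p = 5.95e-04). Myh6 was higher by 3.48 ± 0.43 (adjusted p = 1.78e-04), and part of its reads could come from the similar Myh7. Mhrt, an antisense gene that overlaps Myh7, was higher by 5.65 ± 0.54 (adjusted p = 1.34e-06), with the same limit on strand. At 0 to 0.378 CPM in plantaris, Mhrt passed the filter on low counts through soleus alone, so a call could only be higher in soleus. Myh7b, a further slow-type heavy chain on another chromosome, was higher by 4.60 ± 0.59 (adjusted p = 3.49e-04). Myh6 and Myh7b also stand in the list of muscle spindle markers, of which 3 of 4 tested were higher, against 17.5% of all genes. The third was Etv4 (log2 1.75 ± 0.29, adjusted p = 2.49e-04). The summed level of that list was 119 to 213 CPM in soleus and 3.23 to 17.5 CPM in plantaris. Most of the soleus sum came from Myh7b (21.1 CPM per kb over 6634 bases) and Myh6 (29.7 CPM). The part of spindles in these values was not tested.

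The slow contractile list is the set of thin and thick filament genes of slow fibres. All 12 members differed, 11 higher and 1 lower in soleus, against 17.5% and 18.4% of all genes tested, and their median difference was 4.93 against 0.02 over all genes. Tnni1, Tnnc1 and Tnnt1 encode the inhibitory, calcium-binding and tropomyosin-binding subunits of slow troponin. Tnni1 was at 1539, 1703, 1355, 1582 and 1478 CPM in soleus and 69.0, 39.2, 8.07, 45.2 and 3.67 CPM in plantaris (log2 5.54 ± 0.79, adjusted p = 6.31e-04). Tnnc1 was at 2132 ± 172 against 49.7 ± 41.3 CPM (log2 5.42 ± 0.82, adjusted p = 8.93e-04). Tnnt1 was at 3010 ± 237 against 74.7 ± 53.9 CPM (log2 5.33 ± 0.71, adjusted p = 4.14e-04). Tpm3, the slow tropomyosin, differed by 5.40 ± 0.61 (adjusted p = 1.44e-04), and so did Tpm3-rs7 by 5.46 ± 0.54, a near copy of Tpm3 that can share its reads and is uncertain for that reason. In plantaris these genes were spread widely between libraries and lowest in plantaris 16, while in soleus the libraries lay close together. The exception was Mybpc1, slow myosin-binding protein C, which was slightly lower in soleus (log2 -0.25 ± 0.09, adjusted p = 0.0332). That call was lost on leaving out soleus 12, 14, 15 or 16, or plantaris 12 or 14 (adjusted p 0.0604 to 0.0897).

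The fast contractile list showed the opposite picture. Its 13 members all differed, 12 lower in soleus and Myh2 alone higher (18.4% and 17.5% of all genes), with a median of -1.90. Mybpc2, fast myosin-binding protein C, was at 39.3, 170, 8.00, 26.8 and 12.6 CPM in soleus and 5505, 5106, 5050, 4691 and 9358 CPM in plantaris (log2 -6.857 ± 1.001, adjusted p = 7.57e-04). Actn3, the fast-fibre alpha-actinin of the Z-disc, was at 49.3, 374, 99.3, 33.7 and 51.6 CPM against 7173, 8957, 6818, 6879 and 12360 CPM (log2 -6.12 ± 0.83, adjusted p = 4.83e-04). Within soleus, number 13 was highest for both. Myoz1, a fast-fibre Z-disc protein, was at 211 ± 10.1 against 1356 ± 166 CPM (log2 -2.68 ± 0.09, adjusted p = 1.29e-10), with little spread in soleus. Without soleus 13 and plantaris 16 together, the slow list again had 11 members higher and 1 lower, and the fast list 1 higher and 12 lower.

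Sequence upstream of some of these genes can be set beside their levels. RefSeq (GRCm38.p6) start sites within 50 bases of the deposited gene start were found for 8 of the 12 slow and 3 of the 13 fast contractile genes. The 120 bases before the start were searched on both strands for the E-box (CANNTG, the core bound by myogenic bHLH factors), for TATAAA and for the MEF2 motif. Of 32851 start sites, 40.2% had an E-box, 6.34% TATAAA and 1.33% a MEF2 motif in such a window. Of the 8 slow genes, 5 had an E-box, 0 had TATAAA and 1 had a MEF2 motif. Of the 3 fast genes, 0 had an E-box, 1 had TATAAA and 0 had a MEF2 motif, and these counts are descriptions only. The sequences printed are of 3 genes higher in soleus (Myh7, Tnnc1 and Casq2, the slow-fibre calsequestrin) and 2 lower in it (Pvalb, which encodes the calcium buffer parvalbumin, and Mstn, which encodes myostatin), chosen as large differences with a matching start. Capitals mark motif matches.
Myh7, chr14:54994627-54994746 (- strand): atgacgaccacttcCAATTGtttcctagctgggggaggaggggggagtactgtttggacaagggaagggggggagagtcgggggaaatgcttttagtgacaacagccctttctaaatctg
Tnnc1, chr14:31208192-31208311 (+ strand): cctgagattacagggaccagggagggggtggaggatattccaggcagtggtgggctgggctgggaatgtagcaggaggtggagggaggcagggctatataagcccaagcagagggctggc
Casq2, chr3:102086295-102086414 (+ strand): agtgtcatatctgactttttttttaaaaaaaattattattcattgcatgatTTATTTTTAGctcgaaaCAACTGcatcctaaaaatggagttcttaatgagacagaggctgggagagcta
Pvalb, chr15:78206401-78206520 (- strand): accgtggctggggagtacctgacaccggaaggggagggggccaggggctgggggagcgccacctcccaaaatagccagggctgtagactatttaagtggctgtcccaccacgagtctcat
Mstn, chr1:53061520-53061639 (+ strand): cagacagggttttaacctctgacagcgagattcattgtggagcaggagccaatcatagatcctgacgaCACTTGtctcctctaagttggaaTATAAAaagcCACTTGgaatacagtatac
Casq2 has a MEF2 motif that begins 69 bases before its start and an E-box that begins 52 bases before it. Myh7 has 1 E-box, and Mstn has 2 E-boxes and TATAAA. In Tnnc1 and Pvalb none of the letters searched are in the window.

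A ratio of slow to fast paralog within a library does not depend on how libraries are scaled. Slow and fast here name the first and second gene of each listed pair, whatever their own difference in these data. A higher ratio can come from the second gene alone. Per length of exon, Eno1 was at 8.64 ± 0.764 CPM per kb in soleus and 7.97 ± 0.68 in plantaris, and Prkag1 at 23.9 ± 2.23 and 20.5 ± 2.67. Of 20 such pairs, 18 had a higher slow to fast ratio in soleus (exact two-sided permutation test, adjusted p = 0.00882 for each over the 20), all 18 without overlap, and 0 had a lower one. The median of the 20 differences was 6.62 on the log2 scale of count ratios. These are ratios of counts, which do not allow for the length of the genes. The log2 ratio of Tnni1 to Tnni2 was -0.18 ± 0.14 (SD, n = 5) in soleus and -7.87 ± 1.81 in plantaris, and that of Tpm3 to Tpm1 0.0016 ± 0.13 and -7.54 ± 1.47. Per length of exon, soleus held 425 ± 35.7 CPM per kb of Tnni1 against 1160 ± 96.5 of Tnni2, and 546 ± 44.6 of Tpm3 against 511 ± 30.9 of Tpm1. The merged exons of Tnni1 have 3600 bases and those of Tnni2 1497, so the size of that gap depends on the lengths used. The widest gap in count ratio was that of Myh7 to Myh4, at 8.48 ± 2.71 and -7.46 ± 1.87. Mybpc1 to Mybpc2 and Atp1b1 to Atp1b2, the latter beta subunits of the sodium pump, had log2 count ratios of -0.025 ± 0.34 and 0.15 ± 0.94 in plantaris and of 7.38 ± 1.6 and 6.71 ± 0.34 in soleus. The pairs Pln to Sln (adjusted p = 0.125) and Hk1 to Hk2 (adjusted p = 0.159) overlapped between the muscles. Sln, listed as the fast gene of its pair, was itself higher in soleus (log2 4.13, edgeR adjusted p = 2.41e-04). Without soleus 13 the ratio of Hk1 to Hk2 passed as well (adjusted p = 0.0167).

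**Figure D2:**
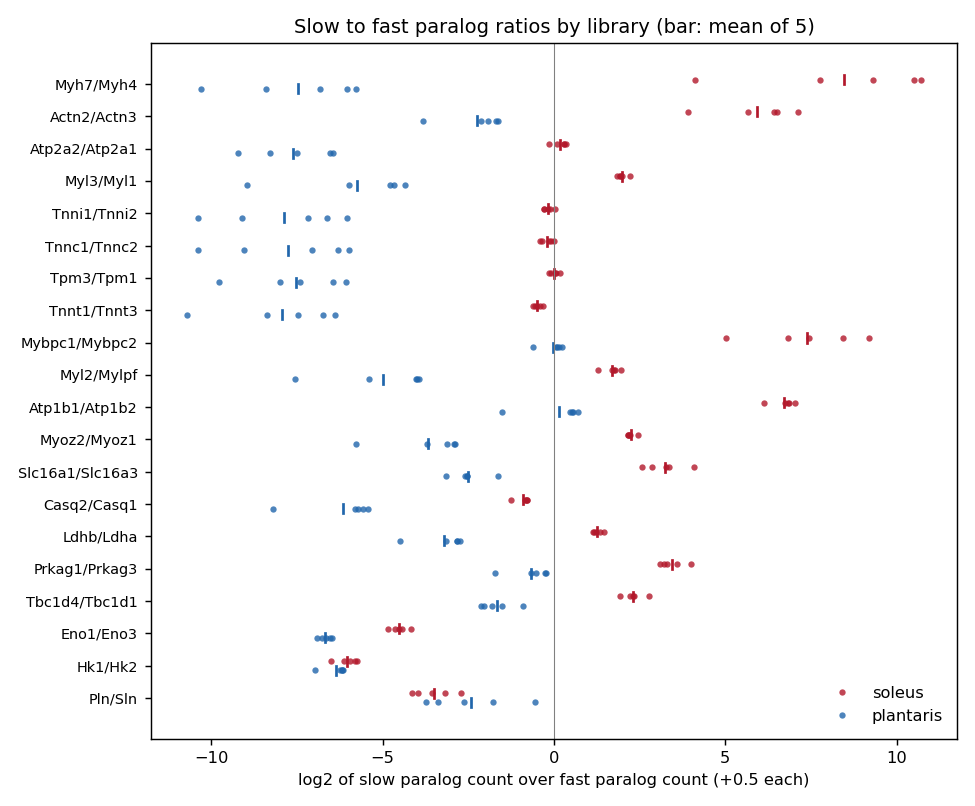
Log2 ratio of the gene listed as slow to the gene listed as fast (x axis, counts + 0.5) for 20 pairs, 1 point per library and a bar at each mean of 5. Points of the muscles are apart for 18 pairs and overlap for Hk1/Hk2 and Pln/Sln.

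Of 29 calcium handling genes, 5 were higher and 19 lower in soleus, where 17.5% and 18.4% of all genes tested were. Atp2a2 encodes the slow and cardiac calcium pump SERCA2 and Atp2a1 the fast pump SERCA1. Atp2a2 was at 8510, 9112, 7994, 9010 and 8384 CPM in soleus and 384, 191, 105, 328 and 62.8 CPM in plantaris (log2 5.33 ± 0.54, adjusted p = 7.05e-05). Atp2a1 was at 7657 ± 954 against 33940 ± 3309 CPM (log2 -2.15 ± 0.11, adjusted p = 3.37e-09), so soleus held the RNA of both pumps and plantaris mostly that of one. The small inhibitors of these pumps split. Sln, sarcolipin, was higher in soleus by 4.13 ± 0.50 (adjusted p = 2.41e-04) and Pln, phospholamban, by 3.51 ± 0.33 (adjusted p = 2.60e-06), while Mrln, myoregulin, was lower (log2 -2.14 ± 0.15, adjusted p = 5.48e-08). The calcium store protein Casq2 was at 329 ± 37.2 against 29.6 ± 12.3 CPM (log2 3.48 ± 0.36, adjusted p = 7.57e-05). Pvalb was at 34.7, 188, 55.3, 28.7 and 79.7 CPM in soleus and 4105, 4921, 3951, 4451 and 6387 CPM in plantaris (log2 -5.95 ± 0.62, adjusted p = 8.69e-05). Every plantaris library was above every soleus library, and soleus 13 was the highest of its group. Camk2a, a calcium-dependent kinase, was lower in soleus (log2 -2.50 ± 0.14, adjusted p = 2.48e-08).

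The membrane pumps and channels had 6 of 18 members higher and 8 lower (17.5% and 18.4% of all genes). The sodium pump subunit Atp1b2 was at 6.56 ± 2.01 CPM in soleus against 211 ± 56.7 CPM in plantaris (log2 -5.01 ± 0.25, adjusted p = 1.16e-07), while Atp1b1 was higher by 1.47 ± 0.24 (adjusted p = 8.25e-04). The potassium channel gene Kcnc4 was lower in soleus (log2 -3.97 ± 0.30, adjusted p = 4.76e-06).

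Genes of the glycolysis list were lower in soleus as a group. The list also holds genes that are not steps of sugar breakdown, such as Gpd1, Gpd2 and Fbp2. Of 21 glycolysis genes, 16 were lower and 2 higher, against 18.4% and 17.5% of all genes, with a median of -1.45. The summed level of the list was 11200 to 12500 CPM in soleus and 34400 to 38900 CPM in plantaris. Gpd1, the cytosolic enzyme of the glycerol phosphate shuttle, was at 44.3, 48.8, 38.6, 48.9 and 40.4 CPM in soleus and 462, 461, 482, 445 and 626 CPM in plantaris (log2 -3.49 ± 0.11, adjusted p = 1.29e-10), and its mitochondrial partner Gpd2 was lower (log2 -3.57 ± 0.20, adjusted p = 1.35e-07). The regulator Pfkfb3 was lower (log2 -3.84 ± 0.63, adjusted p = 0.00146) and the muscle fructose bisphosphatase Fbp2 (log2 -2.42 ± 0.17, adjusted p = 2.06e-07). The members higher in soleus were Ldhb, the heart-type lactate dehydrogenase subunit (log2 2.12 ± 0.26, adjusted p = 1.45e-04), and the weakly expressed Pgam1 (log2 0.58 ± 0.15, adjusted p = 0.00577). Of 15 glycogen genes, 9 were lower and 2 higher (18.4% and 17.5% of all genes). Pygm, muscle glycogen phosphorylase, was at 1367 ± 57.5 against 6171 ± 747 CPM (log2 -2.17 ± 0.10, adjusted p = 7.44e-10), and the phosphorylase kinase subunits Phkg1 (log2 -2.69 ± 0.10, adjusted p = 2.30e-10) and Phkb (log2 -2.13 ± 0.09, adjusted p = 4.93e-10) were lower.

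Transport of sugar and lactate showed matched pairs in opposite directions. Slc16a3 encodes MCT4, a lactate exporter of glycolytic cells, and was at 14.5, 17.4, 5.93, 11.6 and 10.3 CPM in soleus and 374, 342, 385, 230 and 362 CPM in plantaris (log2 -4.82 ± 0.29, adjusted p = 9.65e-07). Slc16a1, which encodes MCT1, was higher by 0.82 ± 0.12 (adjusted p = 1.43e-04). Of the glucose transport regulators, Tbc1d1 was lower (log2 -3.15 ± 0.12, adjusted p = 2.30e-10) and Tbc1d4 was higher by 0.83 ± 0.14 (adjusted p = 4.79e-04). Of the 7 subunit genes of the AMP-activated kinase, 1 was higher and 3 were lower (17.5% and 18.4% of all genes). Those lower were Prkag3 (log2 -3.92 ± 0.24, adjusted p = 3.33e-07), Prkab2 (log2 -2.26 ± 0.14, adjusted p = 6.62e-08) and Prkaa2 (log2 -0.75, adjusted p = 2.05e-06). The 1 subunit that was higher, Prkaa1 (log2 0.31 ± 0.10, adjusted p = 0.0238), lost its call without soleus 12, 15 or 16 (adjusted p 0.0501 to 0.0647). In the phosphagen and purine list, 5 of 20 were higher and 10 lower (17.5% and 18.4% of all genes). Ckm, the cytosolic creatine kinase of muscle, was lower (log2 -1.47 ± 0.09, adjusted p = 1.45e-08), and its mitochondrial counterpart Ckmt2 was higher by 1.07 ± 0.24 (adjusted p = 0.00574). Mb, myoglobin, was higher by 1.04 ± 0.22 (adjusted p = 0.00305).

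Fatty acid use ran the other way, with a median of 0.73. Of its 28 members 23 were higher and 1 lower in soleus (17.5% and 18.4% of all genes). Lpl, the lipase that frees fatty acids from circulating fat, was at 3373, 4034, 3717, 3598 and 2987 CPM in soleus and 1228, 1251, 1135, 1301 and 425 CPM in plantaris (log2 1.73 ± 0.27, adjusted p = 5.71e-04). Fabp3, the muscle fatty acid carrier, was higher by 1.64 ± 0.25 (adjusted p = 5.08e-04) and the uptake protein Cd36 by 1.23 ± 0.15 (adjusted p = 2.06e-05). In each of them plantaris 16 was the lowest library. Ucp3, a mitochondrial carrier, was the 1 member lower in soleus (log2 -1.35 ± 0.19, adjusted p = 2.39e-04). The TCA cycle list had 4 of 17 members higher and 2 lower, close to the 35.8% of all genes that were called, with a median of 0.13. Its largest difference was in Idh2, the mitochondrial NADP-dependent isocitrate dehydrogenase, at 1676 ± 135 against 336 ± 112 CPM (log2 2.32 ± 0.25, adjusted p = 4.23e-05).

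Subunits of the respiratory chain differed by small amounts. Of 26 nuclear-encoded subunits, 15 were higher and 0 lower in soleus (17.5% and 18.4% of all genes). Their median was only 0.26, and 0 passed the 2-fold test. Cox6a1, a cytochrome oxidase subunit, had the largest of these differences at 0.81 ± 0.13 (adjusted p = 2.43e-04), followed by Cox8b at 0.79 ± 0.13 (adjusted p = 2.91e-04). Leaving out soleus 13 and plantaris 16 gave 14 higher and 1 lower. The 13 mitochondrially encoded protein genes took 14.2, 12.9, 13.7, 14 and 14.2% of all counts in soleus 12 to 16 and 11.6, 11.5, 10.9, 12.5 and 9.02% in plantaris 12 to 16. These shares did not overlap (exact two-sided permutation p = 0.00794, adjusted 0.00794 over 2 measures). On the TMM scale, whose factors were higher in soleus, 1 of these 13 genes was higher (mt-Co1, log2 0.37 ± 0.10, adjusted p = 0.00888) and 1 lower (mt-Nd3, log2 -0.37 ± 0.13, adjusted p = 0.0351). The call of mt-Nd3 was lost without soleus 13, 14 or 15, or plantaris 12, 13 or 15 (adjusted p 0.0644 to 0.117). The 10 most abundant genes of a library took 20.1% ± 0.54 (SD, n = 5) of its counts in soleus and 24.1% ± 1.13 in plantaris.

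**Figure D3:**
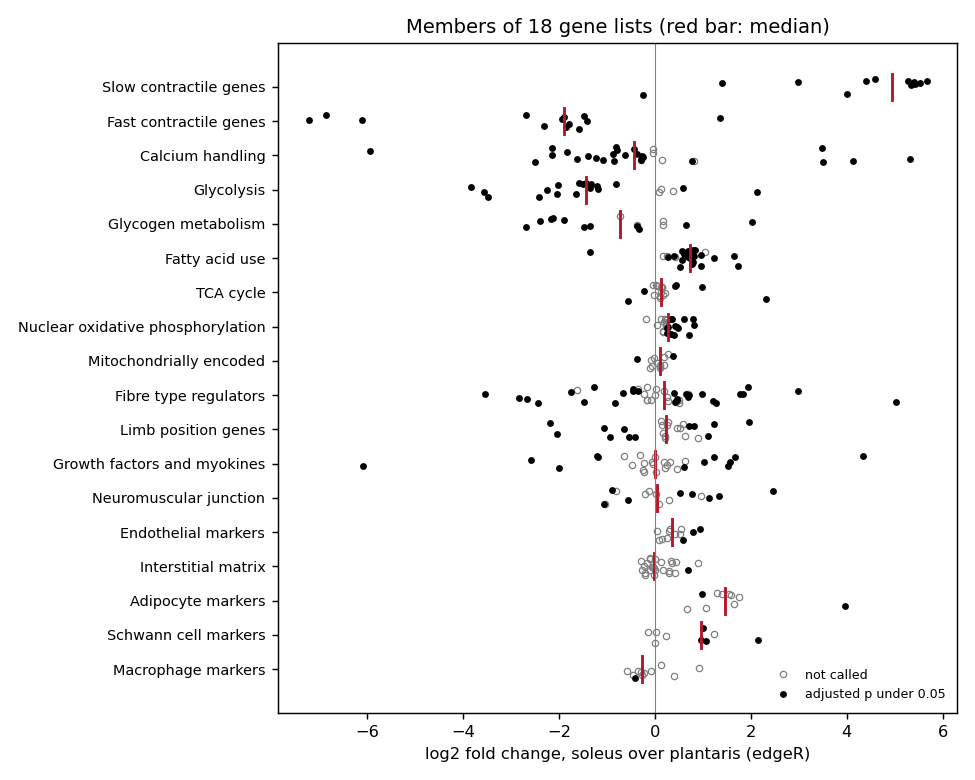
Log2 fold change, soleus over plantaris, of the tested members of 18 gene lists, 1 point per gene; filled points have an edgeR adjusted p under 0.05 and red bars are medians. Slow contractile genes lie furthest right (median 4.93) and fast contractile genes furthest left (median -1.90).

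Among 43 transcriptional regulators linked to fibre type, 15 were higher and 12 lower (17.5% and 18.4% of all genes). Prox1, a homeobox factor of slow fibres, was at 44.2, 44.7, 41.1, 50.5 and 33.7 CPM in soleus and 2.58, 0.715, 0.603, 1.48 and 1.20 CPM in plantaris (log2 5.03 ± 0.29, adjusted p = 1.42e-07). The lowest soleus library was well above the highest plantaris library. The oestrogen-related receptors Esrrb and Esrrg, nuclear receptors of oxidative metabolism, were higher by 1.93 ± 0.17 (adjusted p = 3.24e-06) and 1.85 ± 0.27 (adjusted p = 5.30e-04), and the cofactor Lbh by 2.98 ± 0.17 (adjusted p = 1.30e-08). The large Maf factors, which are known to drive the type IIb chain, were lower: Maf was at 18.4, 17.0, 15.2, 15.1 and 14.4 CPM in soleus and 166, 169, 142, 190 and 275 CPM in plantaris (log2 -3.55 ± 0.17, adjusted p = 1.38e-08), and Mafa differed by -2.84 ± 0.18 (adjusted p = 1.20e-07). Eya4, a transcriptional cofactor, was lower (log2 -2.43 ± 0.25, adjusted p = 2.56e-05) and the nuclear receptor Nr4a3 (log2 -2.68 ± 0.59, adjusted p = 0.00715). Of the myogenic regulators, Myod1 was lower (log2 -1.49 ± 0.24, adjusted p = 4.13e-04) and Myf6 (log2 -0.77 ± 0.09, adjusted p = 1.46e-05), and Id3, an inhibitor of bHLH factors, was higher by 0.79 ± 0.19 (adjusted p = 0.00509).

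Of 24 genes tested that pattern the limb in the embryo, 5 were higher and 7 lower in soleus, against 17.5% and 18.4% of all genes, so the higher count is near the background. The Hoxa cluster, which is read along the body and limb axis in the order of its genes, lies on chromosome 6. Its members up to Hoxa7 (52214491 to 52221854) were not called, and Hoxa9, Hoxa10, Hoxa11 and Hoxa13, the 4 tested members at the posterior end, were all lower in soleus. Hoxa9 and Hoxa10 were named after their values were seen, and differed by -0.55 ± 0.15 (adjusted p = 0.0117) and -0.41 ± 0.12 (adjusted p = 0.0119). The call of Hoxa9 was lost without soleus 13 and plantaris 16 together (log2 -0.43, adjusted p = 0.0574). Hoxa11 (52242106 to 52245810) was at 2.37, 1.13, 3.21, 3.45 and 2.05 CPM in soleus and 8.63, 8.46, 10.7, 11.6 and 10.9 CPM in plantaris (log2 -2.04 ± 0.24, adjusted p = 1.003e-05). Hoxa13 (52257694 to 52260880) was at 2.696, 3.26, 3.10, 2.36 and 2.96 CPM against 12.5, 13.3, 10.1, 14.8 and 14.9 CPM (log2 -2.19 ± 0.15, adjusted p = 6.06e-08). Neither pair of groups overlapped. In the other clusters Hoxc10 was lower (log2 -1.05 ± 0.10, adjusted p = 1.44e-06) and Hoxd9 was higher by 1.22 ± 0.24 (adjusted p = 0.00103). The Hoxc cluster did not show the order seen in Hoxa. Hoxc4, at its anterior end, was lower (log2 -0.64 ± 0.18, adjusted p = 0.0101), and Hoxc11, at its posterior end, was not called (adjusted p = 0.641). Hoxc4 and Hoxc11 were named after their values were seen. Meis1, a partner of Hox proteins, was higher by 1.95 ± 0.25 (adjusted p = 2.06e-05), while Lbx1, a factor of migrating muscle precursors, was lower (log2 -0.94 ± 0.11, adjusted p = 1.36e-05). Tbx4, the hindlimb T-box factor, was higher by 0.81 ± 0.26 (adjusted p = 0.0248), a call lost without soleus 13 (adjusted p = 0.0572) or soleus 15 (adjusted p = 0.0541).

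**Figure D4:**
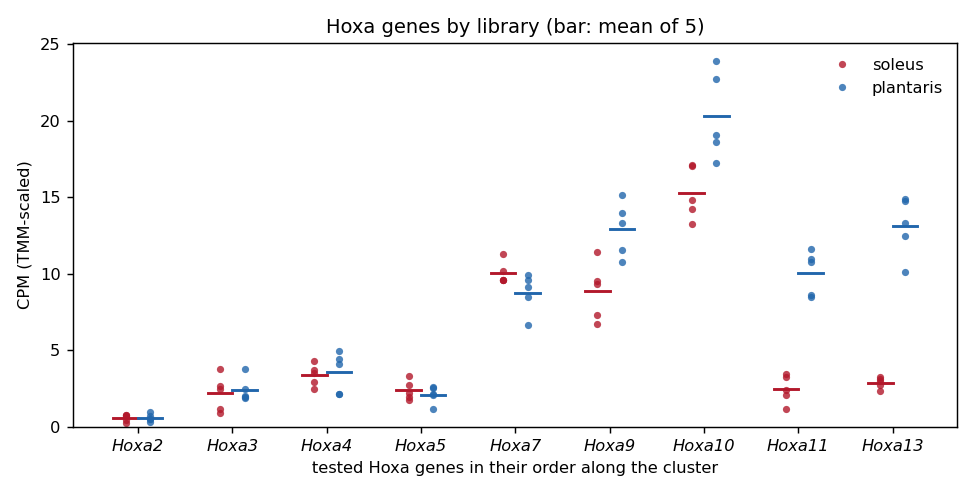
CPM (y axis) of the 9 tested Hoxa genes in their order along the cluster, 1 point per library and a bar at each mean of 5. From Hoxa2 to Hoxa7 the muscles overlap, and for Hoxa11 and Hoxa13 all plantaris libraries lie above all soleus libraries.

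Secreted factors included one of the largest falls. Mstn, myostatin, which restrains muscle growth, was at 0.880, 1.004, 0.599, 1.27 and 0.796 CPM in soleus and 71.9, 39.1, 54.2, 49.4 and 93.1 CPM in plantaris (log2 -6.08 ± 0.30, adjusted p = 7.94e-08), with every soleus library below every plantaris library. Its antagonist Fst, follistatin, was higher by 1.66 ± 0.26 (adjusted p = 2.47e-04) and its close relative Gdf11 lower (log2 -2.003 ± 0.41, adjusted p = 0.00193). In the whole list 7 of 28 were higher and 5 lower, near the 17.5% and 18.4% of all genes. The Wnt antagonist Dkk2 was at 116 ± 30.5 against 5.77 ± 4.19 CPM (log2 4.33 ± 0.51, adjusted p = 2.05e-04), and Wnt4 was lower (log2 -2.58 ± 0.22, adjusted p = 1.36e-06). Fgf1 was higher by 1.56 ± 0.19 (adjusted p = 6.44e-05).

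The counts of the next lists are read against 17.5% of all genes higher and 18.4% lower, which several of them are near. At the neuromuscular junction 5 of 16 genes were higher and 3 lower. Colq, the collagen tail that anchors acetylcholinesterase, was higher by 2.46 ± 0.13 (adjusted p = 5.83e-09), and the acetylcholine receptor subunits Chrna1 and Chrnd by 1.12 ± 0.11 (adjusted p = 1.15e-06) and 1.34 ± 0.22 (adjusted p = 2.13e-04), while the subunit Chrnb1 was lower (log2 -0.89 ± 0.12, adjusted p = 2.84e-05). Of the denervation list 4 of 11 were higher and 2 lower, with Ncam1, a cell adhesion gene, higher by 1.97 ± 0.12 (adjusted p = 1.43e-08) and Gadd45a lower (log2 -2.27 ± 0.39, adjusted p = 0.00153). Of 17 atrophy genes 2 were higher and 6 lower. Fbxo32, the ubiquitin ligase atrogin-1, was at 534 ± 71.0 against 1056 ± 310 CPM (log2 -0.98 ± 0.17, adjusted p = 7.44e-04), and the ubiquitin ligase subunit Asb2 was lower (log2 -1.05 ± 0.08, adjusted p = 1.73e-07). Small heat shock proteins and chaperones had 8 of 17 higher and 2 lower. Cryab, alpha-B crystallin, was at 3253 ± 540 against 1062 ± 232 CPM (log2 1.61 ± 0.17, adjusted p = 6.46e-06), and Hspb7 was higher by 1.64 ± 0.23 (adjusted p = 2.49e-04). Of 22 antioxidant genes 7 were higher and 4 lower, with Cat, catalase, higher by 1.05 ± 0.09, a call by the same test, and Gpx3 lower (log2 -1.77 ± 0.26, adjusted p = 5.61e-04). Of the 20 Z-disc and stretch-sensing genes 8 were higher and 2 lower, led by Ankrd2 (log2 2.41 ± 0.66, adjusted p = 0.0207) and Myoz3 (log2 -1.37 ± 0.12, adjusted p = 8.47e-07).

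Several of the largest differences were in genes outside these groups. By the naming rule the highest over plantaris were Tecrl, an enzyme-like gene known from the heart, at 26.8, 43.8, 22.3, 29.1 and 21.6 CPM in soleus and 0.441, 0, 0, 0.539 and 0 CPM in plantaris (log2 7.20 ± 0.54, adjusted p = 3.84e-06), and Slc22a2, an organic cation transporter, at 9.41, 7.03, 2.39, 7.14 and 5.86 CPM and 0, 0, 0.0603, 0.202 and 0 CPM (log2 6.79 ± 0.61, adjusted p = 1.14e-06). Tgm5 (log2 6.35 ± 0.66, adjusted p = 1.52e-05), Cdh22 (log2 5.95 ± 0.33, adjusted p = 7.41e-09) and Rp1 (log2 5.83 ± 0.31, adjusted p = 7.66e-08), a transglutaminase, a cadherin and a microtubule-associated protein of photoreceptors, followed. On the plantaris side the largest differences were Cntnap2, a neurexin-family membrane protein, at 0.110, 0.126, 0.0544, 0 and 0 CPM in soleus and 9.26, 9.59, 6.57, 12.4 and 27.2 CPM in plantaris (log2 -7.64 ± 0.64, adjusted p = 2.96e-06), and Mss51, a mitochondrial protein of fast fibres, at 0.275, 22.1, 0.435, 0.0605 and 0.284 CPM and 515, 691, 402, 502 and 1336 CPM (log2 -7.25 ± 1.38, adjusted p = 0.00359). Soleus 13 held most of the soleus RNA of Mss51, and without it the log2 differences were -11.29 for Mss51 and -9.97 for Odf3l2. Odf3l2 (log2 -6.60 ± 0.83, adjusted p = 2.82e-04), Cyp4f39 (log2 -5.98 ± 0.63, adjusted p = 9.86e-06), Mdga1 (log2 -5.83 ± 0.36, adjusted p = 1.85e-08) and Neto2 (log2 -5.73 ± 0.49, adjusted p = 4.46e-07) were lower as well. Several of these were close to 0 in 1 muscle, with 4 summed counts of Slc22a2 in plantaris and 5 of Cntnap2 in soleus, so their fitted fold changes depend on the prior count of the fit. Tecrl and Slc22a2 passed the filter on low counts through soleus alone, and Cntnap2 through plantaris alone. A call of these genes could only have the direction given, so their p-values are no support for that direction.

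Marker lists of cells other than fibres varied in their counts, which are set against 35.8% of all genes called and 17.5% higher. Of all 13819 genes tested, 7163 had a positive difference. Of 25 interstitial matrix genes 1 was higher and 0 lower, and of 10 fibro-adipogenic progenitor and 9 tendon and cartilage markers 0 were called (edgeR), where the smallest adjusted p were 0.144 (Hsd11b1) and 0.0878 (Scx). Hsd11b1 was called without plantaris 14 (adjusted p = 0.0483), and Scx without plantaris 13 (adjusted p = 0.0303) or soleus 16 (adjusted p = 0.041). Of 12 endothelial markers 3 were higher, among them Pecam1 (log2 0.59 ± 0.12, adjusted p = 9.15e-04) and Vwf (log2 0.79 ± 0.15, adjusted p = 0.00125), and their summed level was 242 to 408 CPM in soleus and 210 to 301 CPM in plantaris. All 12 had a positive difference (median 0.36), and without soleus 13 and plantaris 16 the number called was 6. All 10 adipocyte markers had a positive difference (median 1.47). Of these, 2 were called (4 by DESeq2), Cidea higher by 3.97 ± 0.27 (adjusted p = 3.65e-08) and Fabp4 by 0.97 ± 0.20 (adjusted p = 0.00259), with summed levels of 191 to 486 and 72.9 to 202 CPM. Of 9 Schwann cell markers 4 were higher (median 0.95), with summed levels of 73.5 to 98.4 and 29.0 to 65.6 CPM that did not overlap, and Mbp, the myelin basic protein, differed by 0.95 ± 0.23 (adjusted p = 0.00487). Of 11 macrophage markers 0 were higher and 1 lower. The 5 erythroid and 5 lymphatic markers had positive differences as well, with 0 and 1 called. In the trained libraries described below, the list medians were 0.0704 (endothelial), -0.32 (adipocyte) and -0.548 (Schwann cell). Those of the erythroid and lymphatic lists were 0.449 and 0.395 there. No marker list had a member at 0 in all 10 libraries. The part of other cell types in the gene results above was not tested.

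Of 12 lymphocyte and plasma cell markers listed, 5 passed the filter on low counts. Of these 5, 2 differed, both lower in soleus, which is near the 35.8% of all genes called. Cd3e, part of the T cell receptor complex, was at 0, 0, 0.0544, 0.0605 and 0 CPM in soleus (2 counts in all) and 1.07, 1.25, 1.33, 1.01 and 5.07 CPM in plantaris (155 counts), without overlap (adjusted p = 3.94e-05). It passed the filter through plantaris alone, so a call could only be lower in soleus. Ighm, an immunoglobulin heavy chain, was at 4.57, 2.38, 6.37, 3.15 and 5.40 CPM in soleus and 30.1, 7.80, 57.2, 21.8 and 818 CPM in plantaris (log2 -5.41 ± 1.49, adjusted p = 0.0215), where plantaris 16 was far above the rest, and its call was lost without soleus 12, 13, 15 or 16 (adjusted p 0.0503 to 0.0538). Without plantaris 16 the difference of Ighm was -2.70 on the log2 scale (adjusted p = 0.00848), and limma gave -3.11 (adjusted p = 0.11). The summed level of the list was 1440 CPM in plantaris 16, 10.2 to 64.9 CPM in the other plantaris libraries and 4.02 to 11.5 CPM in soleus.

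The same comparison in mice of the same age after PoWeR uses other libraries, 4 of each muscle. There 2392 of 13963 genes (17.1%) were called, 1281 higher and 1111 lower in soleus, and 1594 without trained soleus 12. Of the 685 genes past the 2-fold test in sedentary muscle, 655 were tested in trained muscle, 653 had the same sign and 593 were called in the same direction, which is 86.6% of the 685 and 24.8% of the 2392. Of all 4953 sedentary calls, 1950 were called in trained muscle, all in the same direction (39.4% of the 4953 and 81.5% of the 2392). The trained libraries had the myosins of their labels, with Myh4 at 32.5 to 64.7% in plantaris and 0.0665 to 0.987% in soleus. Slow and fast contractile genes had medians of 4.38 and -1.88 there. Nuclear respiratory chain subunits had a median of -0.21 in trained muscle with 0 higher and 1 lower, and mitochondrially encoded genes a median of -0.84 with 0 higher and 8 lower.

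A test of whether the muscle difference itself differed with training called 0 of 14823 genes (0%) by edgeR, where 1785 had an unadjusted p under 0.05. DESeq2 called 183, and edgeR called 197 without trained plantaris 10 and 2 without sedentary plantaris 15. The smallest adjusted p was 0.116, shared by several genes, among them Dixdc1 and Cox8b. Dixdc1 differed by 1.85 ± 0.16 in sedentary and by 0.35 in trained muscle, and Cox8b by 0.79 ± 0.13 and -0.19. Adgrg2 and Gadd45a were the 2 genes past the 2-fold test whose sign turned, Gadd45a from -2.27 to 0.71 (interaction adjusted p = 0.253) and Adgrg2 from 2.43 to -0.033 (interaction adjusted p = 0.288), and both were named after their values were seen.

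**Figure D5:**
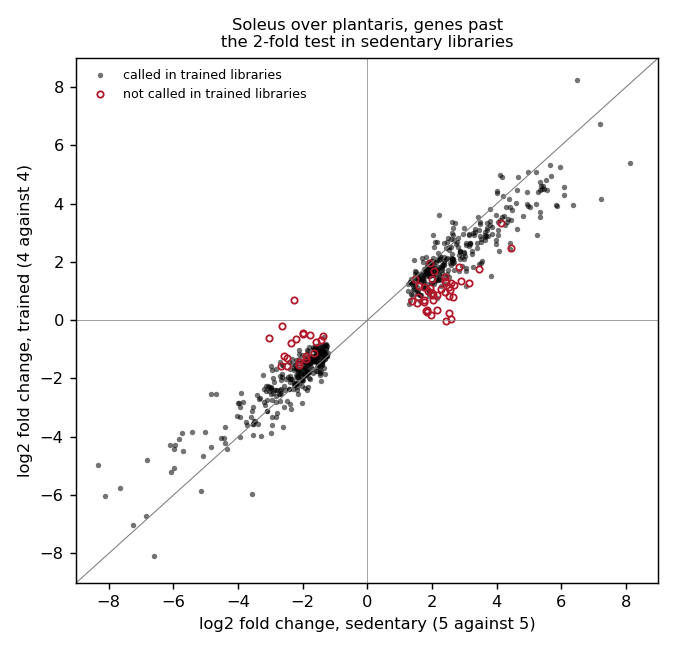
Log2 fold change, soleus over plantaris, in sedentary (x axis) and trained libraries (y axis) for the 655 genes past the 2-fold test in sedentary muscle and tested in both; the line marks equal values. All but 2 genes lie in the same-sign quadrants, and open points mark genes not called in trained libraries.

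At 6 months, 4 sedentary soleus libraries against 4 labelled plantaris gave 578 called genes of 14108 (4.1%), 342 higher and 236 lower in soleus. This count was 369, 171, 92 and 136 without soleus 1, 2, 3 and 4, and 251, 284, 761 and 303 without the libraries labelled plantaris 1, 2, 3 and 4. The libraries labelled plantaris at that age do not have the myosins of the plantaris at 24 months. Myh7 made up 65.5 to 70.6% and Myh4 0.0558 to 0.136% of the counts of the 4 adult chains in them, against 62.2 to 69.3% and 0.0544 to 0.0856% in the young soleus libraries. So no muscle difference is read from the libraries labelled young plantaris, and ages were not compared by a test.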

How the data were processed

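RNA sequencing of whole soleus and plantaris muscle was analysed in the 10 sedentary libraries at 24 months, with 8 trained libraries of that age and 8 sedentary libraries at 6 months for comparison. The authors' deposited table holds expected counts, which are estimated counts per gene for 23011 genes in 34 libraries; 23.7% of the values in the 10 libraries are not whole, and they were rounded. STAR 2.7.3a, Partek, DESeq2 and mm10 are named, without role or order, per the submitters' processing notes. The labels name plantaris RNA in the extraction of every library and soleus in the titles of the aged plantaris libraries, so the source name set the muscle. The deposited gene end is 1 base past the end in GENCODE M21, and ends are given 1 base lower; with that, 98.9% of 22428 matched genes have the coordinates of that annotation.

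Counts were fitted with edgeR 4.0.16 in R 4.3.3, using TMM scaling, genes kept by filterByExpr (at least 10 counts, and 15 in total), dispersions estimated robustly, a quasi-likelihood F test, and glmTreat against a log2 change of 1 for the 2-fold test. Adjusted p-values are Benjamini-Hochberg values over all genes tested, and 0.05 was the threshold throughout. Ratios and shares, with 0.5 counts added to each side of a ratio, were put to exact permutation tests, two-sided, in scipy. Alternatives were DESeq2 1.42.0, limma 3.58.1 voom with quality weights, RLE factors, other filters, all 18 aged libraries, a replicate block, other denominators and each library left out; leaving out soleus 13 and plantaris 16 together was chosen after seeing the data. In simulated counts for the sedentary comparison (13611 genes), edgeR recovered 73 of 100 changes of 2-fold and 92 of 100 of 4-fold. Of its calls there 8.84% were false, against 16.3% for DESeq2, both above the threshold of 0.05. Only the 100 genes of each fold were changed there, a far smaller share than the 35.8% called in the data. The false shares therefore do not measure those of the 4953 calls and do not rank the tools for these data. The biological coefficient of variation was 16.8% in soleus and 22.4% in plantaris.

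Genes were named by a rule: the 12 largest differences in each direction among genes past the 2-fold test with at least 5 CPM in a group and no overlap, leaving out predicted genes; up to 4 called members of each of 40 gene lists in each direction, or, in a list without calls, the 2 with the lowest p; all paralog pairs; and the smallest interaction p-values. Some genes that the rule names are not reported here. The members, lists and tests were chosen with earlier results of these data known. Promoter sequences are from RefSeq.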

Additional observations from a re-analysis of the deposited data

Results flagged for a closer look

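In 206 sets of 5 libraries, the 5 of 1 muscle for 1 measure, the highest or lowest library was checked for a gap to its nearest neighbour. The gap was set against Dixon's critical value of 0.71 of the range, which chance exceeds in about 1 of 20 sets of normal values. These sets are measures of the same 10 libraries that partly overlap, and CPM can be skewed. The share of sets past the value is therefore a description and no test of an excess. The value was exceeded in 34 sets (16.5%), 16 of them by plantaris 16, 10 by soleus 13, 4 by plantaris 13, 3 by soleus 14 and 1 by plantaris 15.

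Plantaris 16 was low in slow and oxidative measures. Its Myh2 share of the 4 myosins was 2.14% against 9.37 to 10.6% in the other plantaris libraries, and its Myh2 level 1909 against 6848 to 8263 CPM. The log2 ratio was -0.61 for Mybpc1/Mybpc2 (others from 0.052), -5.79 for Myoz2/Myoz1 (others from -3.71), -3.81 for Actn2/Actn3 (others from -2.13), -8.20 for Casq2/Casq1 (others from -5.80), -1.53 for Atp1b1/Atp1b2 (others from 0.48) and -4.49 for Ldhb/Ldha (others from -3.16). Its summed TCA cycle genes stood at 6820 against 8920 to 9340 CPM and its nuclear oxidative phosphorylation genes at 9070 against 12400 to 12900 CPM. It was high in Mybpc2 (9358 against 4691 to 5505 CPM), Cntnap2 (27.2 against 6.57 to 12.4 CPM), the neuromuscular junction list (272 against 199 to 213 CPM), the lymphocyte and plasma cell list (1440 against 10.2 to 64.9 CPM), Ighm (818 against 7.80 to 57.2 CPM) and Cd3e (5.07 against 1.01 to 1.33 CPM).

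Soleus 13 was high in several fast-fibre genes, beside the most slow contractile RNA of its group (60800 against 47500 to 52700 CPM). Its Myh4 share was 3.16% against 0.0328 to 0.244% in the other soleus libraries, and its Myh4 level 1639 against 13.99 to 99.5 CPM. Mss51 was at 22.1 against 0.0605 to 0.435 CPM, Mybpc2 at 170 against 8.00 to 39.3, Odf3l2 at 1.82 against 0 to 0.109, Actn3 at 374 against 33.7 to 99.3 and Atp1b2 at 10.04 against 4.84 to 6.26 CPM. It was also high in the ratio Myoz2/Myoz1 (log2 2.44 against 2.16 to 2.22), the fibre type regulator list (5390 against 4680 to 4840 CPM) and the atrophy list (4000 against 3090 to 3290 CPM).

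Soleus 14 had a Myh2 share of 43.6% (others 33.6 to 35.6%), a log2 Casq2/Casq1 ratio of -1.26 (others from -0.85) and 295 CPM of AMP-activated kinase subunits (others 321 to 330). Plantaris 13 had 20100 CPM of Myh1 (others 14190 to 15830), a log2 Hk1/Hk2 ratio of -6.98 (others from -6.23), 853 CPM of growth factors and myokines (others 1180 to 1280) and 3180 CPM of ribosomal protein genes (others 2340 to 2580). Plantaris 15 had 230 CPM of Slc16a3 (others 342 to 385).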

How the results depend on the processing

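The count of 4953 called genes was 4275 to 5259 over the alternatives that keep all libraries and 4431 to 4943 with 1 library left out. The count past the 2-fold test was 532 to 728 except with a mean CPM over 5, where fewer genes are tested and 443 passed (209 higher, 234 lower), and 631 to 723 with 1 library left out. Called list members, summed over the lists, numbered 290 to 323 with 1 library left out. The differences in myosin share, soleus minus plantaris, were then 51.6 to 53.4 percentage points for Myh7, 26.4 to 28.9 for Myh2, -13.1 to -10.2 for Myh1 and -70.4 to -65.5 for Myh4, those in the mitochondrial share 2.17 to 3.04 and in the 10 most abundant genes -4.27 to -3.58, and 18 to 19 of the 20 paralog pairs passed. Of 207 named genes, 194 were called; 30 of them lost the call under at least 1 alternative and in none did the sign turn. With all 18 aged libraries Mbp (adjusted p = 0.161), Mybpc1 (0.139), mt-Nd3 (0.112) and Prkaa1 (0.0526) were not called, and by limma Ighm (0.11), Myh8 (0.0563) and mt-Nd3 (0.052) were not. The count in trained muscle, 2392, was 1594 (without trained soleus 12) to 2934 with 1 library left out. The interaction count of 0 was 0 to 197 (197 without trained plantaris 10, 2 without sedentary plantaris 15) and 183 by DESeq2. The count of 578 at 6 months was 92 to 761 (92 without soleus 3) and 1320 by DESeq2. The cause of these differences was not tested.

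The replicate numbers of the labels do not state a shared animal. Deviations of same-numbered libraries correlated at 0.02, 0.28, 0.16, 0.12 and 0.16 for numbers 12 to 16, and those of unlike numbers at -0.16 to 0.18. Soleus 13 to 16 correlated best with their own number and soleus 12 did not. From the other side, plantaris 13, 14 and 16 correlated best with their own number. Plantaris 12 did so with soleus 14 and plantaris 15 with soleus 12. With the numbers as a replicate block, 5203 genes were called, 718 passed the 2-fold test, 3017 were called in trained muscle and 2 in the interaction, and the circadian clock list had 8 members called in place of 5. Hsd11b1 (adjusted p = 0.00297), Smoc2 (0.00863), Scx (0.0166) and Hk1 (0.0491) were called with the block and not without it, and Mybpc1 (0.0583) and Ighm (log2 -3.64, adjusted p = 0.0567) lost their calls. The paired sign-flip test of the paralog ratios passed 0 pairs, since 5 numbers allow no p below 0.0625. The same floor would hold for the myosin shares and library composition, which were not tested in pairs.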
